A study of Homo sapiens with 54 samples.

Results

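The regions described here are narrow H3K4me3 peaks of RH4 cells that lie outside the annotated genes. They were chosen by the H3K4me3 lists of 2 DMSO libraries: a DMSO replicate 1 peak under 3 kb wide was taken as a member if a DMSO replicate 4 peak overlapped it by at least 1 bp and if it lay more than 10 kb from every gene interval of the deposited TPM tables. This rule found 1861 members among 29812 peaks of DMSO replicate 1, of which 29093 were under 3 kb and 22549 were also found in DMSO replicate 4. The other 20688 of these reproducible narrow peaks overlapped a gene interval or lay within 10 kb of one and are called near peaks. RH4 is an established cell line of fusion-positive rhabdomyosarcoma, a childhood soft tissue tumor driven by the PAX3-FOXO1 fusion protein, and the study treated it with P3FI-63 and P3FI-90, 2 inhibitors of the histone demethylase KDM3B. H3K4me3 was mapped by ChIP-seq after 24 h of DMSO, the solvent control, or of P3FI-90, with 3 libraries each (replicates 1, 3 and 4). RNA polymerase II (total Pol2, and the forms phosphorylated at Ser5 and Ser2), H3K27me3 and HP1 were mapped at 24 h in DMSO and after P3FI-90 with 1 library each, and H3K9me2 with 3 each. ATAC-seq was done after 4 h with DMSO or with 10 uM P3FI-63, 1 library each, and the 24 h RNA libraries numbered 3 for DMSO, 3 for P3FI-90 and 2 for 10 uM P3FI-63. All groups were RH4 cells with no other genetic change given in the labels, and P3FI-90 was given as 1 uM for HP1 and for the replicates 3, 4 and 5 of H3K4me3, H3K9me2 and RNA, with no dose read from the labels for replicate 1 or for the Pol2 and H3K27me3 libraries. Replicates 3 and 4 of the DMSO RNA carry different dates in their titles, and the study's methods speak of biological triplicates without naming these libraries, so p-values measure the spread between these samples, part of which may be technical.

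H3K4me3 is the histone mark of active and poised promoters. It is placed by the SET1 and MLL complexes, which are drawn to unmethylated CpG-rich DNA, and most of it lies at transcription starts. Lower levels are also found at active enhancers and at promoters that an annotation lacks. KDM3B removes mono- and dimethylation from H3K9, and HP1 proteins bind methylated H3K9 in silent chromatin. KDM1A and KDM5A, which the paper also reports as inhibited by P3FI-90, demethylate H3K4. Ser5 phosphorylation marks Pol2 that has initiated and paused near a start, and Ser2 phosphorylation marks elongating Pol2.

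The cells carried RNAs of the muscle lineage. In the DMSO libraries the myogenic factors MYOD1 and MYOG were at 257 ± 56.2 and 346 ± 47.3 TPM (SD, n = 3), desmin (DES) was at 364 ± 33.2, CDH15 at 127 ± 23 and the receptor FGFR4, a PAX3-FOXO1 target, at 276 ± 46.4. MYF5 was listed at 0 in all 3 libraries. Markers of blood, epithelial, endothelial, liver and B cells (PTPRC, EPCAM, KRT5, PECAM1, ALB, MS4A1) were between 0 and 0.26 TPM. The 6 H3K4me3 lists were of unequal length: replicates 1 and 4 held between 24160 and 29812 peaks, and both replicate 3 lists stood apart with 16410 in DMSO and 16662 after P3FI-90. The peak files hold no read counts, so depth could not be set beside the lists.

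The rule depends on how far the gene intervals reach. Of 27043 gene rows, 130 were longer than 3 Mb, 69 of them microRNA symbols, the longest row ran over 228 Mb, and 8 rows ended beyond their chromosome. Together the rows over 3 Mb covered 39.1% of the genome and left no room for members on much of chromosomes 1, 2, 12 and 15: chromosome 15, 96.4% covered, had 0 members, chromosome 1 (94.6% covered) had 9 and chromosome 12 (93.0%) had 17. Without these rows 3031 peaks met the rule. The 1170 peaks that only these rows kept out are counted among the near peaks here. On chromosomes with no such row, members numbered from 36 on chromosome 21 to 191 on chromosome 3, or 0.712 per Mb on chromosome 13 to 1.86 per Mb on chromosome 20, the highest density of any chromosome. The copy number of these chromosomes was not measured here.

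The members were also checked against GENCODE v44 on GRCh37, the build of the peak files. The label "far from genes" did not hold for all of them: 89 members lay within 1 kb of a transcript start of a protein-coding gene, 214 within 1 kb of another start (lncRNAs, pseudogenes, small RNAs), and 462 lay inside a gene of that annotation with no start nearby. The remaining 1096 (58.9%) were outside every GENCODE gene. The 89 members touched the starts of 66 coding genes, and 57 of their symbols were in the TPM tables with an interval that did not reach the member. Among near peaks, 15263 of 20688 had a start within 1 kb, 14058 of them a protein-coding one, and 5425 had none.

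Printed below are 300 bases around the summits of 4 members in GRCh37, plus strand, with each CpG in capitals. They are the 2 members with the highest H3K4me3 fold, the member with the highest Pol2 Ser5 fold and a member downstream of PAX3, and they show how unlike each other in CpG content regions with the same mark were.
strongest member, chr3:86915152-86915451: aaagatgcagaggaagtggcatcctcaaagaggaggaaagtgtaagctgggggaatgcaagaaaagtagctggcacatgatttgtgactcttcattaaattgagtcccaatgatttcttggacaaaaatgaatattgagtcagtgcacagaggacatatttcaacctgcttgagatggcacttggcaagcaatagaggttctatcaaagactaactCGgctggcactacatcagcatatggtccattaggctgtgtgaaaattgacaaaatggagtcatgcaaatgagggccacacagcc
second strongest member, chr6:141219164-141219463: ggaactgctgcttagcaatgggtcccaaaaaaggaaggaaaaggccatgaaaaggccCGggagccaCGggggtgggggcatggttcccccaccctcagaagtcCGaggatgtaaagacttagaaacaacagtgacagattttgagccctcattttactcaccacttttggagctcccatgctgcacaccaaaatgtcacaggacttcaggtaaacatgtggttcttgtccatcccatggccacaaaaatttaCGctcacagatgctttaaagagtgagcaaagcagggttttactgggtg
strongest Ser5 member, chr17:41392741-41393040: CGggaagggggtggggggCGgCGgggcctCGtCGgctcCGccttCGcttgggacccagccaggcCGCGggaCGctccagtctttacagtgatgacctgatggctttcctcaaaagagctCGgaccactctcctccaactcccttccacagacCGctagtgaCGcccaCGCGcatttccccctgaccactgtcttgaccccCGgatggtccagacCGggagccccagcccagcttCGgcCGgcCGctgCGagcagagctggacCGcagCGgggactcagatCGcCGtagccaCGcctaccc
member 30.0 kb from PAX3, chr2:223034293-223034592: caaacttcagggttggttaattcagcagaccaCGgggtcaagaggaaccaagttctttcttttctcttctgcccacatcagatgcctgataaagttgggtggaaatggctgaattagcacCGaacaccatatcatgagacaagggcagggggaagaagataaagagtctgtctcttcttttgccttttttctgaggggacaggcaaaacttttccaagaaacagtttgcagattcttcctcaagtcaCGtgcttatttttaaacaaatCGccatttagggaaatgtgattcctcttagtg
The strongest member held 1 CpG in 300 bases (43.3% GC, CpG observed over expected 0.07), the second 4 and the PAX3 member 4. The strongest Ser5 member held 26 CpGs at 68.0% GC, an observed over expected ratio of 0.76, and the SP factor motif GGGCGG. The strongest member held TGACTCA and CCAAT.

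Members were mostly CpG-poor. The median GC content of the 300 bases at the summit was 49.7% and the median CpG ratio 0.32, and 303 of 1861 members (16.3%) were CpG-rich, with over 50% GC and a ratio over 0.6. Near peaks at a transcript start had a median of 62.3% GC and 0.73, and 67.8% were CpG-rich. Near peaks without a start had 49.3% GC and 0.28, with 9.35% CpG-rich. The members therefore resembled near peaks without a start in base composition, with a longer tail toward CpG-rich sequence. That class is not free of far peaks. It holds peaks kept from the rule only by gene rows over 3 Mb, up to 1275 kb from any other gene row. Their part in this and the later likenesses was not tested. Of the 89 members at a protein-coding start 70 were CpG-rich, against 119 of the 1096 outside every gene.

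**Figure D1:**
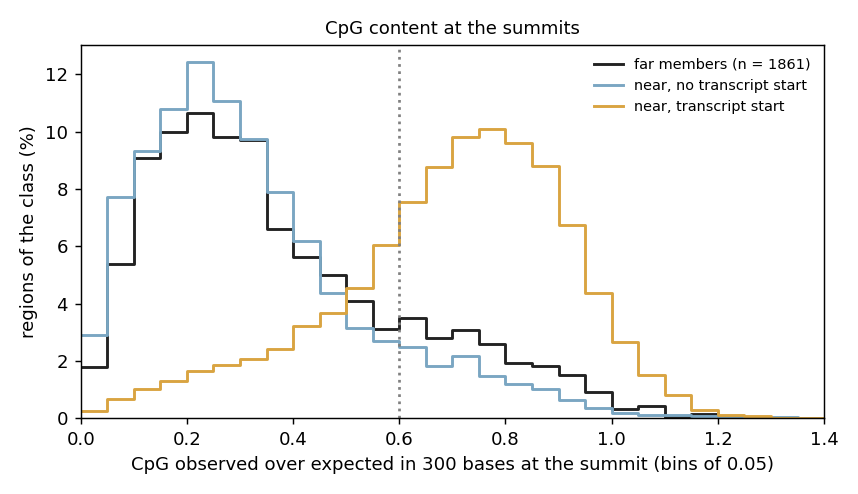
Distribution of the CpG observed over expected ratio in 300 bases at the summit (horizontal axis, bins of 0.05) as the percent of regions in each class (vertical axis), for members, near peaks without and near peaks with a transcript start within 1 kb; the dotted line marks 0.6. Members and near peaks without a start peak between 0.2 and 0.25, and near peaks with a start between 0.75 and 0.8.

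Short motifs were counted in the same 300 bases on both strands. CAGCTG, the E-box bound by MYOD1, was in 25% of members, 25.3% of near peaks without a start and 16.8% of those with one, beside 19.5% of all 22549 reproducible peaks. TGACTCA, the AP-1 motif, was in 7.09%, 6.43% and 2.88%, and 4.08% of all. GGGCGG was in 17.4%, 13.7% and 46.5%, and 36.2% of all. CCAAT (NF-Y) was in 31.4% of members and 23.8% of all, CCGGAAG (ETS) in 3.76% and 5.94%, AGGGGGC (part of the CTCF site, which can share letters with GGGCGG) in 8.71% and 11.2%, and GTCACG (part of the PAX paired-domain site) in 6.50% and 7.45%. The PAX3 member printed above holds GTCACG. Such matches are letters in a window and follow base composition.

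The H3K4me3 level of the members, the measure that chose them, was low. Their MACS2 fold enrichment over local background in DMSO replicate 1 had a median of 12.6 and ran from 3.75 to 159, against a median of 34.2 at near peaks, 44.5 at near peaks with a start and 12.05 at near peaks without one. Members were narrow, with a median width of 502 bp (197 to 2862) against 1048 bp at near peaks. The edges of the rule fell within the same population: the member closest to a gene, 10.0 kb from MIR193A, had folds of 23.3 and 16.8 in DMSO replicates 1 and 4, and the closest peak left out, 9.998 kb from MIRLET7A1, had 20.8 and 7.93. The widest member was 2862 bp wide with a fold of 11.6 in DMSO replicate 1, and 17 far peaks of 3064 to 5740 bp were left out for their width.

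The first comparison asked whether P3FI-90 changed the share of H3K4me3 peaks far from genes. It was made in each list alone, so that no list was favored by the rule. Far narrow peaks were 8.91%, 2.58% and 8.64% of all peaks in DMSO replicates 1, 3 and 4 and 9.05%, 2.65% and 8.76% after P3FI-90. Each P3FI-90 list lay slightly above the DMSO list of its number, by 0.14, 0.07 and 0.12 percentage points, while libraries of a group lay much further apart, and the difference of 0.11 points between the means (6.71 ± 3.58% in DMSO, 6.82 ± 3.61% after P3FI-90, SD, n = 3) was far smaller than that spread (exact two-sided permutation test, p = 0.7; 3 against 3 cannot go below 0.1). Far peaks were also weaker than near narrow peaks in every list, although among peaks with a -log10 p of at least 20 the direction turned in both replicate 3 lists (0.023 in DMSO and 0.039 after P3FI-90 on the log2 scale). Their median log2 fold minus that of near narrow peaks was -1.17, -0.28 and -0.50 in DMSO replicates 1, 3 and 4, and the values after P3FI-90 were -1.21, -0.21 and -0.72. The mean difference between groups was -0.07 on the log2 scale (exact two-sided permutation test, p = 0.9).

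**Figure D2:**
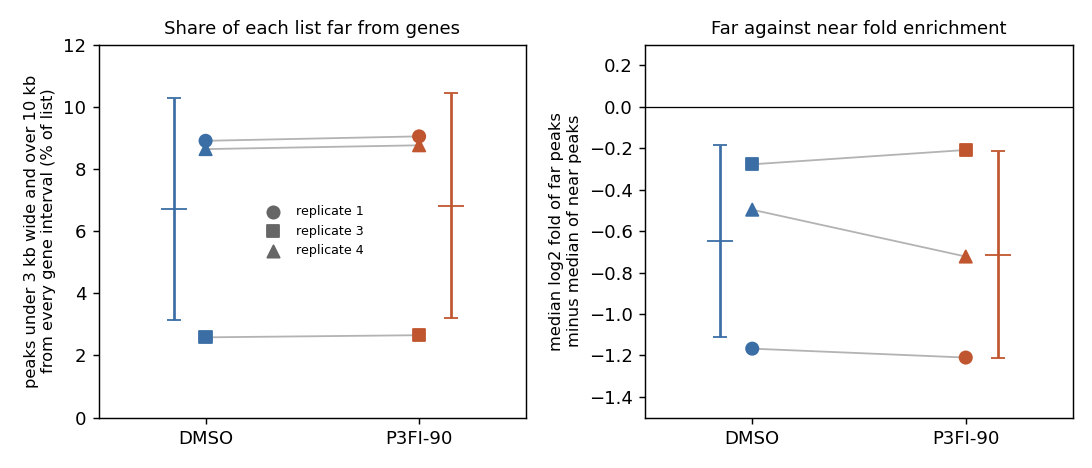
Left, peaks under 3 kb and over 10 kb from every gene interval as a percent of each H3K4me3 list; right, median log2 fold of these far peaks minus that of near narrow peaks in the same list. Points are lists, grey lines join lists of the same replicate number, and bars give mean and SD (n = 3). Both replicate 3 lists sit at 2.58 and 2.65%, apart from the other 4, and lines joining replicates are nearly flat in the left panel.

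The members were then looked up in the 4 H3K4me3 lists that the rule had not used. P3FI-90 replicates 1 and 4 had a peak at 1631 (87.6%, exact 95% interval 86.1 to 89.1%) and 1663 (89.4%, 87.9 to 90.7%) of the 1861 members, whereas the shorter replicate 3 lists had one at 285 members in DMSO (15.3%, 13.7 to 17%) and 315 after P3FI-90 (16.9%, 15.2 to 18.7%). These intervals, as all others for shares here, cover counting error only. The shares thus differed far more between replicate numbers than between the replicate 3 lists of DMSO and P3FI-90. Replicate number went together with list length and with the rule, which used DMSO replicates 1 and 4, so these cannot be told apart. In the replicate 3 pair, the only pair in which neither list took part in the choice, 245 members had a peak in both lists, 40 in DMSO alone, 70 after P3FI-90 alone, and the median log2 ratio of P3FI-90 over DMSO was 0.03 where both had a peak. All 4 lists shared 238 members and 100 members were in none of the 4.

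How often a member was found again followed its strength. Among the 493 weakest members by -log10 p (8.42 to 21.4), 65.1% were found in P3FI-90 replicate 1 and 1.01% in DMSO replicate 3, and for near peaks in the same range of -log10 p the shares were 63.3% and 2.26%. P3FI-90 replicate 4 held 75.66% of these members and 67.85% of these near peaks. At like strength, members were thus found more often than near peaks in some lists and less often in others. Among the 462 strongest (87.1 to 1082) P3FI-90 replicate 1 held 99.8% of members, while DMSO replicate 3 held 48.7% of members and 79.2% of near peaks, and P3FI-90 replicate 3 56.5% and 81.4%. In that range, which held 13724 of 20688 near peaks, strength was not matched more closely.

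In all, 101 of 1861 members (5.43%, 4.44 to 6.56%) were in none of the 3 P3FI-90 lists, against 458 of 20688 near peaks (2.21%) and 2.48% of all reproducible narrow peaks. The mirrored rule gives the scale of such losses in the other direction: of 1892 far peaks shared by P3FI-90 replicates 1 and 4, 90 (4.76%, 3.84 to 5.82%) were in none of the 3 DMSO lists, against 1.54% of near peaks and 1.8% of all. Taken list by list, near peaks without a start were missing more often than members. P3FI-90 replicate 1 had no peak at 15.6% of them and at 12.4% of members. In P3FI-90 replicate 4 these shares were 16.0% and 10.6%. The 101 members were weak. Their median fold in DMSO replicate 1 was 8.16 and none was above 11.9, none was CpG-rich, and 1 was in DMSO replicate 3, whereas the 1760 members found after P3FI-90 had a median of 13.4. ATAC peaks of DMSO lay at 22 of them (21.8%) and Ser5 peaks at 18 (17.8%). Of the 6 with the highest -log10 p, 5 are described here, with folds between 9.99 and 11.9 in DMSO replicate 1 and between 4.66 and 8.66 in replicate 4, and their nearest genes were TAB2, BAIAP2L1, RFX6, LINC01322 and WDFY3-AS2. Losses of this kind thus sat at the weak end of the lists.

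Change in H3K4me3 fold was tested on the 11162 merged regions with a peak in all 6 lists, of which 228 held members (272 members in all, while 1589 members lacked a peak in at least 1 list and could not be fitted). No region passed limma at an adjusted p under 0.05: 0 of 228 with members and 0% of all 11162, with 3 and 144 regions at an unadjusted p under 0.05, and the smallest adjusted p among the 228 was 1. The median change at regions with members was -0.01 on the log2 scale (P3FI-90 minus DMSO, from -0.62 to 0.71), 112 were higher and 116 lower, and the median over all regions was 0.02. Each library was centered on its own median for this fit, which sets the balance of higher and lower values. Centering also takes out any shift shared by all regions. The paper tested read counts of its H3K4me3 triplicates, scaled by a Drosophila spike-in. It reported upregulated peaks after P3FI-90 and none downregulated. The folds fitted here were not scaled in that way, so the absence of calls is not set against that result. In the lists as deposited, members with a peak in both lists of a pair had a median log2 ratio of 0.14 in replicate 1 (1012 higher, 619 lower) and 0.17 in replicate 4 (1090 higher, 573 lower), beside 0.05 and 0.35 at all reproducible narrow peaks. The DMSO lists of these pairs had chosen the members, and members without a P3FI-90 peak drop out. In the replicate 3 pair, which the rule did not use, 132 members were higher and 113 lower (median 0.03, beside 0.0015 at all). With replicate number as a block, 0 regions passed, the smallest adjusted p at regions with members was 0.77, and 19 of 228 and 677 of 11162 had an unadjusted p under 0.05. Without the block, standard errors of the named regions were 0.24 to 0.50, so changes of that size could not be told from the spread of these libraries.

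**Figure D3:**
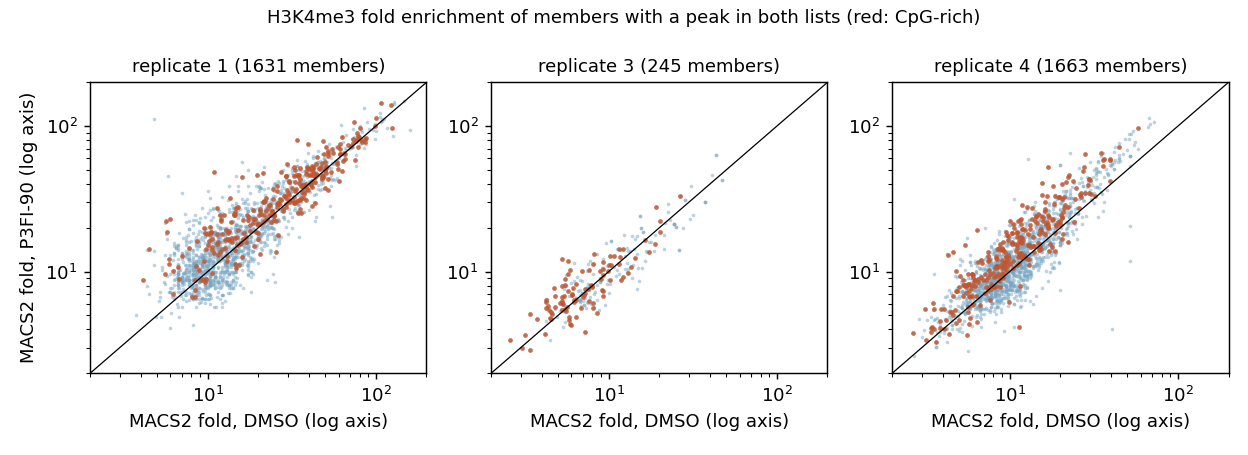
H3K4me3 MACS2 fold enrichment of each member in DMSO (horizontal) and after P3FI-90 (vertical) for replicates 1, 3 and 4, log axes, members with a peak in both lists; red points are CpG-rich members and the line marks equal values. Points scatter along the line, with 1631, 245 and 1663 members in the 3 panels.

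The 6 strongest members had a peak in all 6 lists, at folds that differed widely between libraries. The member with the highest fold, 789 bp at chr3:86914890-86915678, had folds of 159, 46.98 and 47.2 in DMSO replicates 1, 3 and 4 and 94.6, 43.0 and 64.1 after P3FI-90. It lay outside every GENCODE gene, 71.4 kb from VGLL3, a cofactor of TEAD transcription factors, whose RNA was at 284, 237 and 126 TPM in DMSO and 238, 241 and 133.8 after P3FI-90. The groups overlapped for both the mark (log2 change -0.30 ± 0.41 SE, limma adjusted p = 1) and the RNA. Pol2 peaks of all 3 kinds lay on it in DMSO, total Pol2 at a fold of 20.5, Ser5 at 39.1 and Ser2 at 10.8. After P3FI-90 total Pol2 was at 10.5 and Ser5 at 20.5, and no Ser2 peak was listed. A second member 1195 bp wide lay just beyond it with a fold of 58.5 in DMSO replicate 1, and a single peak covered both in replicate 3.

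The second strongest member, 1507 bp at chr6:141218206-141219712, lay at the start of a GENCODE gene known only by its identifier. It had folds of 148, 31.6 and 72.0 in DMSO and 150, 24.3 and 107 after P3FI-90, and its 3 Pol2 peaks of DMSO (8.07, 33.7 and 8.07 for total, Ser5 and Ser2) left the Ser5 peak alone, at 18.2, after P3FI-90. Behind it a member of 763 bp at chr18:23083274-23084036 and 151 kb from ZNF521 had folds of 129, 12.8 and 67.8 and then 145, 14.4 and 114. It carried ATAC peaks in both conditions, at 8.45 in DMSO and 18.6 after P3FI-63, and no Pol2 peak in any list. High H3K4me3 was thus found with and without listed Pol2.

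Next came a member of 1612 bp and 22.5 kb from ORC5 at chr7:103870957-103872568, with folds of 129, 23.2 and 66.3 in DMSO and 141, 22.7 and 98.2 after P3FI-90. Its Ser5 peak of 13.6 was not listed after P3FI-90. The member at chr4:123073015-123074399 lay at the GENCODE start of BLTP1, the current symbol of KIAA1109, whose interval in the TPM tables began 17.4 kb away. Its folds were 127, 18.5 and 29.3 in DMSO and 86.2, 13.8 and 39.7 after P3FI-90. The last of the 6, CpG-rich and outside every gene, at chr13:45491623-45493282 and 20.1 kb from NUFIP1, had 125, 7.51 and 39.4 and then 97.7, 7.60 and 58.8, with Ser5 folds of 13.9 and 13.8. In each of the 6, the lowest value of either condition came from replicate 3, and the log2 changes lay between -0.34 and 0.21 (limma adjusted p = 1 for each).

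Open chromatin was found at about the share of members seen at other H3K4me3 peaks without a start. ATAC peaks of DMSO overlapped 689 members (37.0%, 34.8 to 39.3%), 36.2% of near peaks without a start and 46.6% of near peaks with one. After P3FI-63 the shares were 903 members (48.5%, 46.2 to 50.8%), 46.6% and 67.3%, from a list that had grown from 30221 to 55987 peaks. Of the 689 members open in DMSO, 608 had an ATAC peak after P3FI-63 and 81 (11.8%) had none, beside 5.37% of all reproducible narrow peaks and 11.2% of near peaks without a start. A further 295 members (15.9%) had a peak after P3FI-63 alone, beside 19.8% of all. When the P3FI-63 list was shortened to its strongest 30221 peaks, 630 members (33.9%, 31.7 to 36.05%) were overlapped, fewer than in DMSO, while near peaks stood at 46.9% against 43.9%. The higher share of open members after P3FI-63 was thus not seen at equal list length. Of the 608 members with a peak in both full lists, 460 had the higher fold after P3FI-63 and 148 the lower. Their median log2 ratio was 0.36, beside 0.46 at all reproducible narrow peaks. Why the P3FI-63 list was longer was not tested. There was 1 ATAC library per condition, so no test was made.

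Total Pol2 peaks were more frequent at members than at near peaks with a start, and Ser5 and Ser2 peaks less frequent. The DMSO lists held 6031 total Pol2, 13691 Ser5 and 10086 Ser2 peaks. A share of listed peaks is not an amount of polymerase, least of all for the short total Pol2 list. In DMSO total Pol2 peaks overlapped 286 members (15.4%, 13.8 to 17.1%), 13.6% of near peaks without a start and 7.78% of those with one. Ser5 peaks overlapped 483 members (25.95%, 23.97 to 28.01%), 21.9% and 50.7%. Ser2 peaks, the elongating form, overlapped 28 members (1.505%, 1.002 to 2.17%), 4.96% and 7.07%. Each mark was measured in 1 library per condition, and at the total Pol2 members 171 of 286 (59.8%) also had a Ser5 peak, against 312 of 1575 members without total Pol2 (19.8%).

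After P3FI-90 the Pol2 lists were shorter over the whole genome, and at members too. The total Pol2 list fell from 6031 to 521 peaks, and 29 members (1.56%, 1.05 to 2.23%) were overlapped, 25 of them also in DMSO. Thus 261 of 286 (91.3%) were no longer listed, beside 92.3% of all reproducible narrow peaks with total Pol2. The Ser5 list fell from 13691 to 7484 peaks and overlapped 244 members (13.1%, 11.6 to 14.7%), 210 of them also in DMSO. Of the 483 members with Ser5 in DMSO, 273 (56.5%) had none after P3FI-90, beside 45.1% of all, 61.7% of near peaks without a start and 41.9% of near peaks with one. Where both lists had a Ser5 peak, 155 of 210 members had the lower fold after P3FI-90 (median log2 ratio -0.29). The Ser2 list fell from 10086 to 2268 peaks and the members from 28 to 19. Members made up 4.96% of total Pol2 peaks in DMSO and 5.76% after P3FI-90, 3.79% and 3.42% of Ser5 peaks, and 0.33% and 0.93% of Ser2 peaks. With the DMSO lists cut to the length of the P3FI-90 lists, total Pol2 overlapped 42 members (2.26%), Ser5 209 (11.2%) and Ser2 4 (0.215%), so the order of the conditions turned for Ser5 and Ser2. At equal length near peaks had Ser5 at 29.6% in DMSO and 25.1% after P3FI-90, an order that did not turn, Ser2 at 2.40% and 2.77%, and total Pol2 at 1.09% and 0.74%.

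Of the 6 members with the highest Ser5 folds in DMSO, 3 lay outside every GENCODE gene. The first, 1141 bp at chr17:41392174-41393314 and 11.1 kb from LINC00854, is the CpG-rich sequence printed above: its Ser5 fold was 89.0 in DMSO and 69.3 after P3FI-90, total Pol2 21.1 and 6.70, Ser2 4.38 and 7.99, and its H3K4me3 folds were 42.1 and 11.2 in DMSO replicates 1 and 4, with no peak in DMSO replicate 3, and 50.9, 4.58 and 22.2 after P3FI-90. Among the 6 it was the only member with a Ser2 peak in both conditions. The next, 1867 bp at chr3:150087887-150089753 at the start of an unnamed GENCODE gene 36.4 kb from TSC22D2, had Ser5 folds of 43.9 and 51.9 and H3K4me3 folds of 65.7, 30.8 and 51.4 in DMSO and 71.2, 38.5 and 87.7 after P3FI-90 (log2 change 0.25 ± 0.50 SE, limma adjusted p = 1). The pair near VGLL3 and the member on chromosome 6 followed. The last, inside a GENCODE gene 22.6 kb from EYA1, a regulator of muscle and organ development, had Ser5 folds of 30.3 and 16.5.

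HP1, the reader of methylated H3K9, overlapped members far more often than near peaks with a start. Its DMSO list overlapped 513 members (27.6%, 25.55 to 29.7%), 27.8% of near peaks without a start and 4.54% of those with one, while the list covered 0.44% of the genome. After P3FI-90, with a list that grew from 23615 to 41771 peaks over 0.84% of the genome, 928 members (49.9%, 47.6 to 52.2%), 51.0% and 10.9% were overlapped. Of the 513, 41 (7.99%) had no HP1 peak after P3FI-90, beside 15.2% of all reproducible narrow peaks, and 456 members (24.5%) had one after P3FI-90 alone, beside 13.6% of all and 26.4% of near peaks without a start. With the P3FI-90 list shortened to the length of the DMSO list, 783 members (42.1%, 39.8 to 44.4%) were still overlapped, and near peaks went from 10.6% to 16.1%. These HP1 lists reached down to a -log10 p of 3.02 and 3.03, against 7.01 in the other narrow lists, and their folds were low, with medians of 3.61 and 4.04 where members had a peak.

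HP1 divided the members by base composition and by company. Of 303 CpG-rich members, 3 had an HP1 peak in DMSO (0.99%, 0.20 to 2.87%) and 21 after P3FI-90 (6.93%), whereas of the other 1558 members 510 (32.7%, 30.4 to 35.1%) and 907 (58.2%) did. Total Pol2 followed the same division, at 8 CpG-rich members (2.64%, 1.15 to 5.14%) and 278 of the others (17.8%, 16.0 to 19.8%), while Ser5 (22.8% and 26.6%) and ATAC in DMSO (35.3% and 37.4%) did not differ beyond their intervals. HP1 and total Pol2 peaks also met at the same regions: 214 of the 286 members with total Pol2 had an HP1 peak (74.8%, 69.4 to 79.8%), against 299 of 1575 without it (18.98%, 17.1 to 21.01%). At near peaks without a start the shares were 66.98% and 21.6%. Whether reads common to several ChIP libraries give rise to these shared peaks was not tested.

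**Figure D4:**
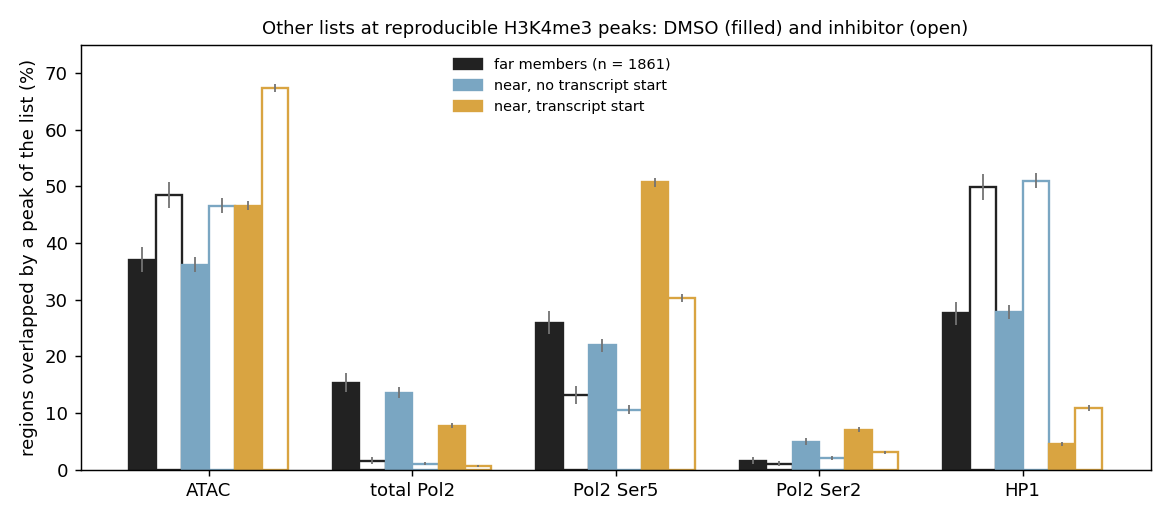
Percent of regions overlapped by at least 1 bp by a peak of each list (vertical axis), for members, near peaks without and near peaks with a transcript start within 1 kb; filled bars are DMSO, open bars P3FI-63 for ATAC and P3FI-90 for the others, and lines are exact 95% binomial intervals. Members and near peaks without a start have bars of similar height for ATAC, total Pol2 and HP1 (27.6 and 27.8% for HP1 in DMSO), and near peaks with a start differ from both.

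H3K9me2 peaks overlapped members more often than near peaks in every list, while H3K27me3 differed less. H3K27me3 peaks, which covered 14.4% of the genome in DMSO and 14.6% after P3FI-90, overlapped 1238 (66.5%) and 1203 (64.6%) members and 59.96% and 62.6% of near peaks. H3K9me2 overlapped 1372, 423 and 13 members in DMSO replicates 1, 3 and 5 (73.7%, 22.7% and 0.70%) and 1309, 155 and 18 after P3FI-90 (70.3%, 8.33% and 0.97%). Near peaks stood at 60.3%, 11.5% and 0.17% in DMSO and 57.6%, 3.30% and 0.35% after P3FI-90, and near peaks without a start at 75.04%, 24.2% and 0.31% and then 71.3%, 7.87% and 0.81%. The H3K9me2 lists held 1266233, 26073 and 9382 peaks in DMSO and 1289399, 14924 and 9294 after P3FI-90. The H3K27me3 lists held 724949 in DMSO and 784239 after P3FI-90. The part of list length in the overlaps was not tested. Both H3K27me3 lists and both H3K9me2 replicate 1 lists reached down to a -log10 p of 1.00. The H3K9me2 lists of replicates 3 and 5 reached down to 3.01 to 3.03. A 1 bp overlap with such a list does not show that a member carries the mark.

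Members farther from genes were poorer in CpG-rich sequence and more often overlapped by HP1. From 10 to 25 kb of the nearest gene interval 160 of 586 members (27.3%) were CpG-rich and 102 (17.4%) had an HP1 peak in DMSO. Beyond 100 kb 22 of 429 (5.13%) were CpG-rich and 192 (44.8%) had HP1. Among members that were not CpG-rich the HP1 share was 23.9% at 10 to 25 kb, 24.3% at 25 to 50 kb, 35.0% at 50 to 100 kb and 46.9% beyond 100 kb. Total Pol2 was at 11.8% of the closest and 21.4% of the farthest class, and ATAC at 37.5% and 36.1%. The share found in P3FI-90 replicate 1 went from 92.7% to 80.7%.

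**Figure D5:**
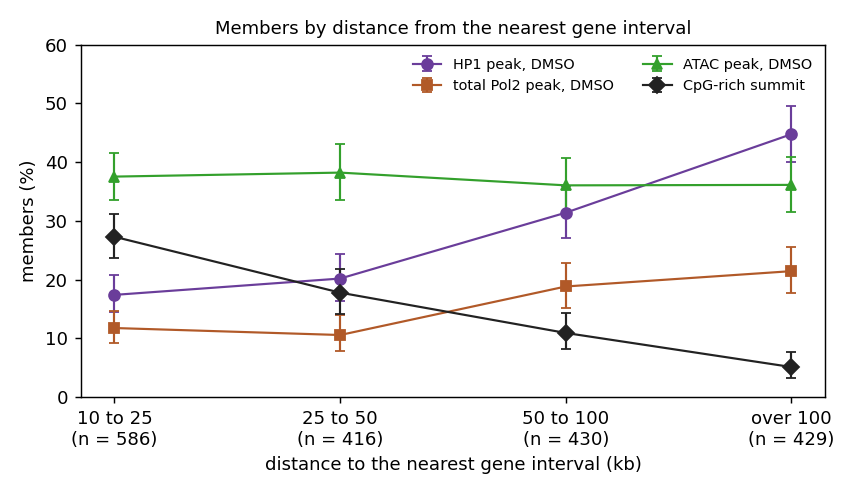
Percent of members (vertical axis) with an HP1, total Pol2 or ATAC peak in DMSO or a CpG-rich summit, in 4 classes of distance to the nearest gene interval (horizontal axis); bars are exact 95% binomial intervals. HP1 goes from 17.4 to 44.8% and CpG-rich summits from 27.3 to 5.13% between the closest and the farthest class, while ATAC stays between 36.1 and 38.2%.

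Members with a transcript start in GENCODE had other values than the rest. At the 89 coding starts the median fold was 36.7 and DMSO replicate 3 held a peak at 62.9%, while 1 had an HP1 peak in DMSO and 1 a total Pol2 peak. At the 1096 members outside every gene the median fold was 12.2, DMSO replicate 3 held 11.3%, and HP1 and total Pol2 were at 28.6% and 16.1%. ATAC (31.5% and 38.4%) and Ser5 (31.5% and 25.8%) differed less.

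The genes nearest to members had a median DMSO level of 2.58 TPM, beside 0.35 TPM over all genes in the tables. Within 100 kb, 1432 members had 944 nearest genes, of which 524 had a DMSO mean of at least 1 TPM (55.5%, against 45.3% of all 27043 genes in the tables) and 191 were listed at 0 in all 8 libraries. Genes nearest to a Ser5 member had a median of 4.71 TPM (n = 262), those nearest to a member without Ser5 2.06 (n = 787) and those nearest to an HP1 member 0.83 (n = 228), and a gene can stand in more than 1 of these groups. Nearness does not show that a region acts on a gene.

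None of the nearest genes passed the test for a response to P3FI-90. Of 520 tested, 0 were called by limma at an adjusted p under 0.05, beside 1 of 12332 genes (0.00811%), TRIB3, a stress-response pseudokinase gene named here for its count, at 22.1, 25.7 and 25.5 TPM in DMSO and 129, 242 and 279 after P3FI-90 (log2 change 3.03 ± 0.29 SE, adjusted p = 0.0183). At an unadjusted p under 0.05 there were 15 of 520 nearest genes and 244 of all. With replicate number as a block 0 of 520 and 3 of all genes passed, the other two being DDIT3 and CXCL8. In that fit 64 of 520 nearest genes and 998 of all had an unadjusted p under 0.05. The smallest adjusted p of a nearest gene in the blocked limma fit was 0.238. The median change of the nearest genes was -0.10 on the log2(TPM + 1) scale, beside -0.08 over all genes.

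The 10 nearest genes with the highest DMSO level were ACTB, PTMA, HMGB1, EIF1, ITGB1, YWHAZ, DAD1, HNRNPD, KPNA2 and RPN1, genes of the cytoskeleton, chromatin, translation, adhesion and protein transport, at means of 347 to 3896 TPM. EIF1, a translation initiation factor, had the smallest unadjusted p of all nearest genes: it was at 652, 714 and 694 TPM in DMSO and 998, 1265 and 1176 after P3FI-90, and the groups did not overlap (log2 change 0.73 ± 0.15 SE, limma adjusted p = 1). HNRNPD, an RNA-binding protein gene, was at 450, 508 and 427 and then 325, 319 and 289 TPM, again without overlap (log2 change -0.57 ± 0.18 SE, limma adjusted p = 1). The other 8 had log2 changes between -0.42 and 0.17. How many of all tested genes had groups without overlap was not counted. For these genes and those below, a lack of overlap is therefore no sign of a response by itself.

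Of 34 PAX3-FOXO1 targets and muscle regulators, 7 were the nearest gene of 15 members at any distance: PAX3, SOX8, PDGFRA, TFAP2A, TFAP2B, JARID2 and KLF4. The share of all genes at any distance was not counted. Within 100 kb only PAX3, SOX8 and PDGFRA remained, beside 944 of all 27043 genes. PAX3, which supplies the DNA-binding part of the fusion protein, had 2 members downstream of its 3′ end. The nearer, 339 bp at chr2:223034262-223034600 and 30.0 kb away, had H3K4me3 folds of 12.2 and 10.4 in DMSO replicates 1 and 4, a peak in P3FI-90 replicate 4 alone (10.2), and the highest total Pol2 fold of any member, 49.5, which was 15.9 after P3FI-90. Its Ser5 folds were 12.9 and 8.02 and its HP1 folds 5.34 and 7.02, and no ATAC peak lay on it. The farther, 432 bp at chr2:222941907-222942338 and 122 kb away, had ATAC folds of 31.2 in DMSO and 33.8 after P3FI-63 and total Pol2 at 11.9 in DMSO alone. PAX3 RNA was at 23.5, 20.3 and 17.4 TPM in DMSO and 12.2, 14.35 and 12.3 after P3FI-90, with no overlap between groups (log2 change -0.61 ± 0.33 SE, limma adjusted p = 1).

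The other neighbors of that list differed from each other in strength. SOX8, a transcription factor gene of neural crest and muscle, had a CpG-rich member 32.0 kb away with folds of 12.2 and 4.20 in DMSO replicates 1 and 4 and 18.0 and 4.61 after P3FI-90, and ATAC folds of 7.01 and 22.5. SOX8 RNA was at 197, 279 and 266 TPM in DMSO and 120, 197 and 200 after P3FI-90, groups that overlapped (log2 change -0.54 ± 0.25 SE, limma adjusted p = 1). PDGFRA, a receptor gene, had 3 members, the strongest 10.9 kb away with folds of 45.5 and 26.5 in DMSO and 67.1 and 43.98 after P3FI-90 in replicates 1 and 4, while its RNA was low, at 2.12, 3.06 and 1.41 and then 1.44, 2.1 and 1.28 TPM. KLF4 had 3 members 148 to 243 kb away, the strongest with folds of 44.2, 14.2 and 24.5 in DMSO and 34.1, 14.3 and 27 after P3FI-90. KLF4 RNA was at 9.16, 9.96 and 6.99 TPM in DMSO and 15.3, 20.98 and 17.3 after P3FI-90, groups that did not overlap, but it did not pass the limma test. The members of JARID2 (4), TFAP2A (1) and TFAP2B (1) lay 249 to 369 kb away with folds of 7.74 to 14.8 in DMSO replicate 1.

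Some members stood alone and others lay close together. When members less than 25 kb apart were joined, the 1861 members formed 1288 runs, of which 941 were single members. All other members shared a group with another member. The groups of 4 or more numbered 50 and held 253 members in all. The largest, named after its values were seen, held 9 members over 51.7 kb of chromosome 14 next to SLC38A6, of which 4 had total Pol2, 5 Ser5, 5 HP1 and 0 were CpG-rich.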

How the data were processed

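Per the labels, reads of RH4 cells were mapped to hg19 (GRCh37) with BWA, and the authors called peaks in each library with MACS2. The deposited lists give each peak a fold enrichment over local background, a ratio, and a −log10 p. RNA values are TPM that the authors made with STAR and RSEM. Members, lists and tests were chosen with earlier results of these data known. Overlaps (1 bp or more) were counted with bedtools 2.31.1. Distances to the nearest gene leave out gene rows over 3 Mb, which the rule for members kept. Annotation and sequence came from GENCODE v44 on GRCh37 and the GRCh37 genome. Values per list were compared by exact permutation tests. H3K4me3 log2 fold, centered on the median of each library, and log2(TPM + 1), for genes averaging 1 TPM or more, were fitted by limma 3.58.1 with trend, Benjamini-Hochberg adjusted p under 0.05, after tests on simulated data. The regions named are the 6 members with the highest fold, the 6 with the highest −log10 p absent after P3FI-90 (1 of these is not reported here), the 6 with the highest Ser5 fold and the edges of the rule. The genes named are those nearest to them, the 10 most expressed nearest genes and neighbors from a list of PAX3-FOXO1 targets and muscle regulators. Libraries with the same replicate number deviated together from their group means (r = 0.60, 0.66 and 0.46 for H3K4me3 and 0.57, 0.57 and 0.64 for RNA, replicates 1, 3 and 4), so a replicate block was tried. Other alternatives were distance, width, −log10 p, overlap, list length, pseudocount, filter, scaling, each replicate left out and, chosen after seeing the data, gene rows over 3 Mb dropped and members at GENCODE starts dropped. Of 54 samples 32 were used. Single-cell, Hi-C, tumor, screen and other RNA samples were not used here.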

Additional observations from a re-analysis of the deposited data

How the results depend on the processing

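Of the alternatives to the values per list, shares and counts, 102 stayed the same, 33 moved and 5 reversed. With a replicate block the difference in far share of 0.11 points had p = 0.25, the smallest that 3 pairs allow, and the far to near difference of -0.07 had p = 0.75 (exact paired permutation tests); the block gave 3 called genes in place of 1 over all genes and changed no call for members. The far share difference was -0.14 points beyond 50 kb (exact permutation test, p = 0.5). Leaving out each replicate gave far to near differences of -0.13 to 0.013, positive without replicate 4, and 0 to 2 called genes, with 2 without replicate 1 and 0 without replicate 3 or 4. Named genes turned sign with a replicate left out for ITGB1 (-0.020 to 0.063), VGLL3 (-0.11 to 0.057), ZNF521 (-0.081 to 0.00082) and WDFY3-AS2 (-0.034 to 0.20). Without centering, the median change over all regions was 0.17 and over regions with members 0.15, and 0 regions were called. The shares of members in DMSO replicate 3 and P3FI-90 replicates 1, 3 and 4 were 13.2, 83.2, 14.1 and 85.9% beyond 50 kb. They were 11.5, 76.7, 12.5 and 69.6% without support in DMSO replicate 4, 19.5, 94.3, 21.6 and 93.5% at a −log10 p of at least 20, and 7.74, 79.7, 7.90 and 85.2% when 50% of the member had to be covered. Without members at GENCODE starts, chosen after seeing the data, the first 3 were 11.3, 85.9 and 12.5%. Dropping gene rows over 3 Mb moved no share beyond its interval. ATAC after P3FI-63 was at 43.4% beyond 50 kb, and total Pol2 in DMSO at 20.1%. Requiring 50% of the other peak gave 30.2% and 38.9% for ATAC in DMSO and after P3FI-63, 10.5% for total Pol2 and 22.3% for Ser5 in DMSO. With lists of equal length, ATAC after P3FI-63 was at 33.9%, and total Pol2, Ser5 and Ser2 in DMSO were at 2.26, 11.2 and 0.215%. The differences between conditions then reversed to -3.17 points for ATAC, 1.88 for Ser5 and 0.81 for Ser2. The cause of these changes was not tested. Single libraries for ATAC, Pol2 and HP1, and peak files without read counts, limit what these shares show.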
